A study of Mus musculus with 9 samples.

Results

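The genes described here are the receptors and ligands of platelet-derived growth factor (PDGF) and a set of surface proteins by which fibroblasts are commonly recognised. They are the rows of the gene table whose symbol is Pdgfra, Pdgfrb, Pdgfa, Pdgfb, Pdgfc, Thy1, Pdpn, Cd34, Fap or Mxra8, 10 of 24493 genes. Their expression was measured by RNA sequencing of cultured mouse pancreatic tumor cells (C57BL/6 background, DMEM with serum, no treatment). The 9 libraries fell into 3 groups of 3, namely the lines escape e2 and escape e1, which the series calls immunotherapy-resistant and derived from the parental cells, and the parental line itself. The sources used here do not give the therapy, the way the lines were derived or whether each is a clone. The labels also leave unsaid whether libraries of 1 group stem from separate cultures. The p-values then measure only the spread between these libraries, which may be technical.

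PDGF chains are secreted growth factors that act as dimers on a pair of receptor tyrosine kinases. The A and C chains act through the alpha receptor, the B chain through both receptors, and the D chain mainly through the beta receptor. In pancreatic tumors the receptors are typical of stellate cells, fibroblasts and pericytes, while tumor epithelium is a known source of ligand. Thy1, Pdpn, Cd34, Fap and Mxra8 encode surface proteins of stromal cells. None of them is exclusive to fibroblasts: T cells carry Thy1, lymphatic endothelium Pdpn, and blood progenitors and endothelium Cd34.

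Levels are given as TPM, a transcript abundance scaled by transcript length and to a fixed sum per library. TPM allows levels of different genes to be compared but keeps no sequencing depth. Depth is therefore unknown here, and a value of 0 is described only as listed at 0. Fold changes are differences of log2(TPM + 1) values, given ± SE, and understate changes of genes near 0. A gene was called when its adjusted p from limma was under 0.05. Of the 10 members, 9 reached 1 TPM in at least 3 libraries and were tested among 12769 genes. In 6 of these 9 (Pdgfra, Pdgfrb, Thy1, Pdpn, Cd34 and Mxra8) every parental library was under 1 TPM. These entered the test by their escape libraries alone, which leaves little room for a lower value than parental. Only Pdgfa, Pdgfb and Pdgfc stood at 1 TPM or more in parental libraries. In bulk RNA, a change in the number of expressing cells and a change in RNA per cell cannot be told apart.

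Correlations of log2 values between libraries of a group ran from 0.987 to 0.995. Library 1 of e1 stood somewhat apart. In 165 of the tested genes (1.29%) it differed from both other e1 libraries by more than 1 on the log2 scale in the same direction, against 40 to 63 genes in each of the other 8 libraries. It is named below beside members and some other genes for which it lay apart. It also lay apart in genes given below only as means or fold changes. In Cd44, Msn, Col1a1, Postn and Cbl it was higher than the other e1 libraries (Cd44 at 294, 214 and 213 TPM in e1 libraries 1, 2 and 3). In Vcam1, Nrp1 and Shc1 it was lower (Vcam1 at 67.4, 90.1 and 91.3 TPM). These genes are examples and not a full list. Differences were widespread in these lines: 73.5% of tested genes were called in e2 against parental, 70.6% in e1 against parental and 70.3% in e2 against e1. The balance of directions in e2 against parental depended on the scaling, with 5209 genes higher and 4174 lower as fitted, 4633 and 4828 under median-ratio scaling, and 4625 and 4808 in the rlog values. So did that in e2 against e1, with 5189 and 3792 as fitted, 4624 and 4449 under median-ratio scaling, and 4656 and 4467 in the rlog values. A call by itself is therefore the common outcome, and the sizes and directions below carry the description.

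Across the members, e2 carried the broader set. In e2 against parental, 7 of the 9 tested members were higher and 0 lower, where 40.8% of all tested genes were called higher and 32.7% lower. Pdgfb and Pdgfc were the members not called, at an unadjusted p of 0.181 and 0.137. In e1 against parental, 6 were higher and 2 lower (Pdgfa and Pdgfb), where the shares over all tested genes were 35.7% and 34.9%. In e2 against e1, 5 were higher (Pdgfra, Pdgfa, Thy1, Pdpn and Cd34) and 2 lower (Pdgfc and Mxra8), against 40.6% and 29.7% of all tested genes. The comparisons with parental share the same 3 parental libraries. Since most members entered the test through the escape lines, these counts are a description and not support for a direction. The libraries of the compared groups did not overlap for 8 of 9 members in e2 against parental (81.4% of all tested genes), for 8 of 9 in e1 against parental (71.4%) and for 7 of 9 in e2 against e1 (76.5%).

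**Figure D1:**
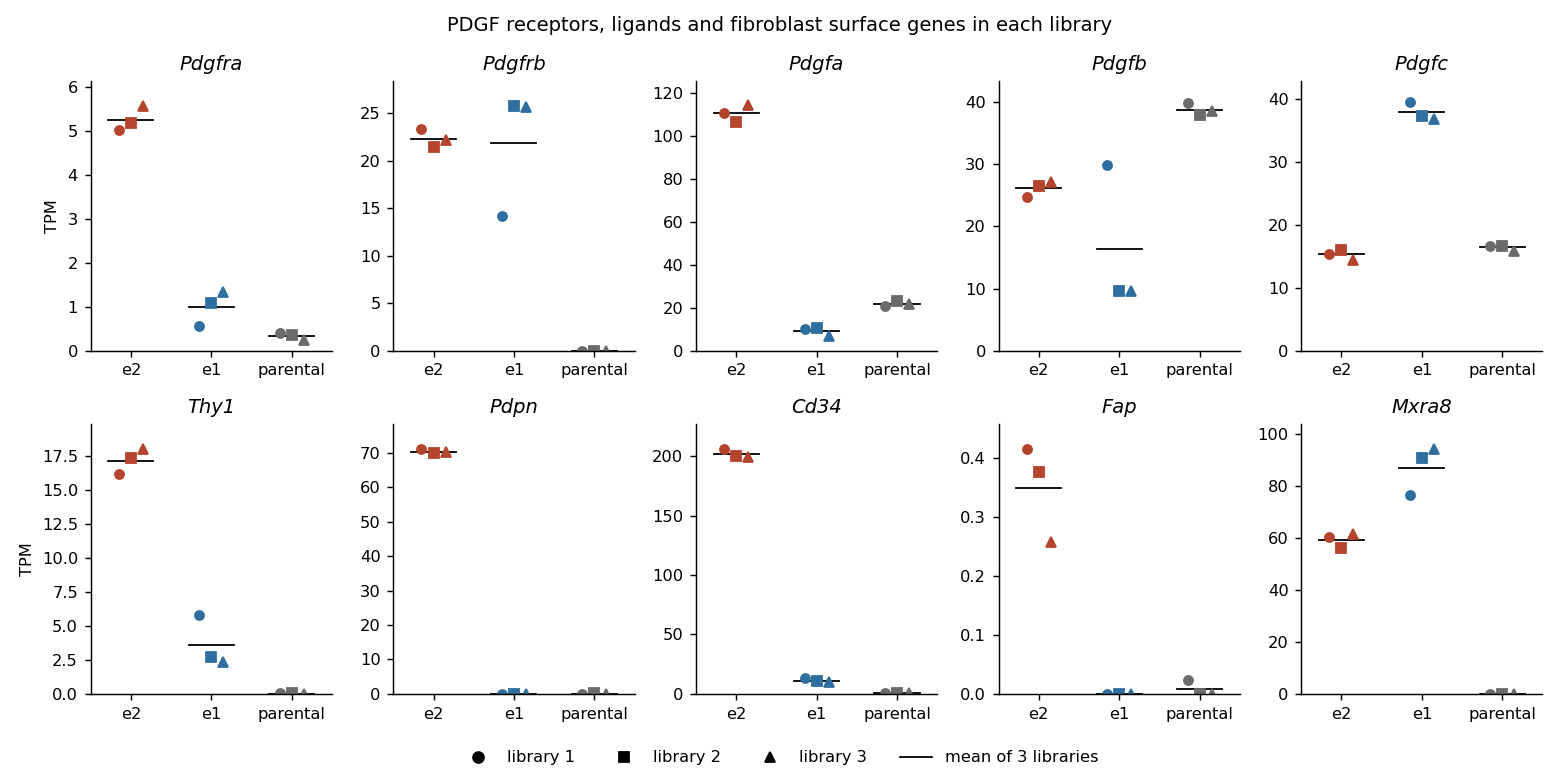
TPM of the 10 members (one panel each, linear axis from 0) in e2, e1 and parental libraries. Each symbol is 1 library and each line the mean of 3. Pdpn stands near 70 TPM in e2 and under 0.2 TPM elsewhere, Pdgfrb is listed at 0 in all parental libraries, and e1 library 1 lies apart from the other e1 libraries for Pdgfb and Pdgfrb.

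Both receptor genes were low or absent in the parental table and present in the escape lines. Pdgfrb, the beta receptor (chromosome 18, 61045127 to 61085067), stood at 23.3, 21.5 and 22.2 TPM in e2 and at 14.2, 25.8 and 25.6 TPM in e1, and was listed at 0 in all 3 parental libraries. The escape libraries all lay above the parental ones, and no fold is given against a group listed at 0. The adjusted p was 2.23e-08 for e2 and 2.92e-08 for e1 against parental (limma). Between the lines the e2 values fell inside the range of the e1 values, and the difference was 0.08 ± 0.19 (95% interval -0.35 to 0.50, adjusted p = 0.74). Its sign turned under median-ratio scaling (-0.0201) and in the rlog values (-0.0169). Without e1 library 1 it was -0.20 with an adjusted p of 0.0164, so 1 library decided that call.

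Pdgfra, the alpha receptor (chromosome 5, 75151322 to 75198206), was the weaker receptor gene in both lines. It stood at 5.01, 5.18 and 5.57 TPM in e2, at 0.562, 1.10 and 1.34 TPM in e1, and at 0.394, 0.367 and 0.237 TPM in parental cells. The 3 groups did not overlap, with e2 clearly above and e1 only slightly above parental. The log2 fold change was 2.23 ± 0.14 in e2 (adjusted p = 3.81e-07) and 0.57 ± 0.14 in e1 (adjusted p = 0.0046), where library 1 was the lowest and the value without it was 0.74. Pdgfra in e2 exceeded that in e1 by 1.66 ± 0.14 (adjusted p = 4.39e-06). Of the summed receptor TPM, Pdgfrb made up 79.9 to 82.3% in e2 libraries and 95.02 to 96.2% in e1 libraries, while the parental sum of 0.237 to 0.394 TPM was Pdgfra alone. These shares are given per library and were not tested.

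Among pericyte markers, which are relevant to Pdgfrb, Cspg4 (the proteoglycan NG2) rose as well, to 15.5 ± 1.07 TPM in e2 and 14.99 ± 1.79 TPM in e1, against 0.0260 ± 0.00413 TPM in parental cells (SD, n = 3 each). It was the only 1 of 7 pericyte markers with a group mean of 1 TPM or more. Rgs5, Kcnj8, Abcc9 and Higd1b, the more restricted pericyte genes, were at or near 0, with group means up to 0.124 TPM. That highest mean was Rgs5 in e2, against 0.00623 TPM in e1 and 0.0462 TPM in parental cells. Notch3 had group means of 0.505 TPM in e2, 0.469 TPM in e1 and 0.266 TPM in parental cells. Des had 0.141, 0.00598 and 0.0446 TPM in the same order. The part of pericyte transcripts in the Pdgfrb result was not tested. The summed list ran from 15.2 to 17.4 TPM in e2, 14.5 to 17.3 TPM in e1 and 0.217 to 0.643 TPM in parental libraries.

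The ligand genes were already expressed in parental cells, and each line changed them differently. Pdgfa, which encodes the A chain (chromosome 5, 138976014 to 139000792), stood at 111, 107 and 114 TPM in e2, at 10.1, 10.5 and 6.66 TPM in e1, and at 21.0, 23.3 and 21.5 TPM in parental cells. It rose in e2 and fell in e1, and the 3 groups did not overlap. The log2 fold change was 2.28 ± 0.14 in e2 (adjusted p = 2.85e-07) and -1.21 ± 0.14 in e1 (adjusted p = 3.04e-05). The difference between the lines was 3.49 ± 0.14 (adjusted p = 3.43e-08), the largest among the 3 ligand members.

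Pdgfc, the C chain (chromosome 3, 81036416 to 81214040), showed the reverse arrangement between the lines. It stood at 15.4, 16.1 and 14.5 TPM in e2, at 39.6, 37.4 and 36.8 TPM in e1, and at 16.7, 16.7 and 15.9 TPM in parental cells. In e1 it rose by 1.16 ± 0.06 (adjusted p = 1.01e-07), and all 3 e1 libraries lay above all others. In e2 the difference from parental was -0.10 ± 0.06 (95% interval -0.23 to 0.04, adjusted p = 0.167), with overlapping libraries. It passed in the rlog values (-0.17, adjusted p = 0.0268) and under median-ratio scaling (-0.19, adjusted p = 0.0301). The value in e2 against e1 was -1.25 ± 0.06 (adjusted p = 1.05e-07).

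Pdgfb, the B chain (chromosome 15, 79995865 to 80024614), was highest in parental cells. It stood at 24.8, 26.5 and 27.1 TPM in e2, at 29.9, 9.64 and 9.66 TPM in e1, and at 39.8, 38.0 and 38.5 TPM in parental cells. Library 1 of e1 was about as high as the e2 libraries, and the other two e1 libraries were far lower. Pdgfb fell in e1 by 1.39 ± 0.37 on the log2 scale (adjusted p = 0.0109), and by 1.90 without e1 library 1 (adjusted p = 1.30e-09). In e2 the difference from parental was -0.55 ± 0.37 (95% interval -1.43 to 0.32, adjusted p = 0.215), although the e2 and parental libraries did not overlap. The pooled spread of this fit includes e1 library 1. Without that library the same value had an adjusted p of 2.70e-06, and with the compared groups only 1.47e-05. The e2 value exceeded that of e1 by 0.84 ± 0.37 (adjusted p = 0.079), or by 1.35 without e1 library 1 (adjusted p = 2.45e-08).

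Pdgfd, the D chain, is not among the 10 members but completes the ligand family. It fell to 0.403 ± 0.0556 TPM in e2 and 0.0583 ± 0.0287 TPM in e1, against 5.43 ± 0.908 TPM in parental cells (-2.19 ± 0.11, adjusted p = 6.48e-08, and -2.59 ± 0.11, adjusted p = 2.28e-08). Summed over the 4 ligand genes, the TPM per library ran from 149.6 to 156 in e2, from 53.2 to 79.7 in e1 and from 81.7 to 84.1 in parental cells. The leading ligand transcript differed by group. Pdgfa made up 71.3 to 73.1% of the sum in e2, 12.5 to 18.3% in e1 and 25.6 to 27.7% in parental cells. Pdgfc made up 9.28 to 10.7% in e2, 49.7 to 69.2% in e1 and 19.4 to 20.4% in parental cells. Pdgfb made up 16.4 to 17.7%, 16.8 to 37.5% and 45.2 to 48.6% in the same order, and its high value in e1 was that of library 1. The summed ligand TPM was 5.33 to 5.62 times the summed receptor TPM in e2. In e1 the ratio was 2.14 and 1.97 in libraries 2 and 3 and 5.40 in library 1, and in parental libraries it was 208 to 346. These sums and ratios are descriptions without a test.

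**Figure D2:**
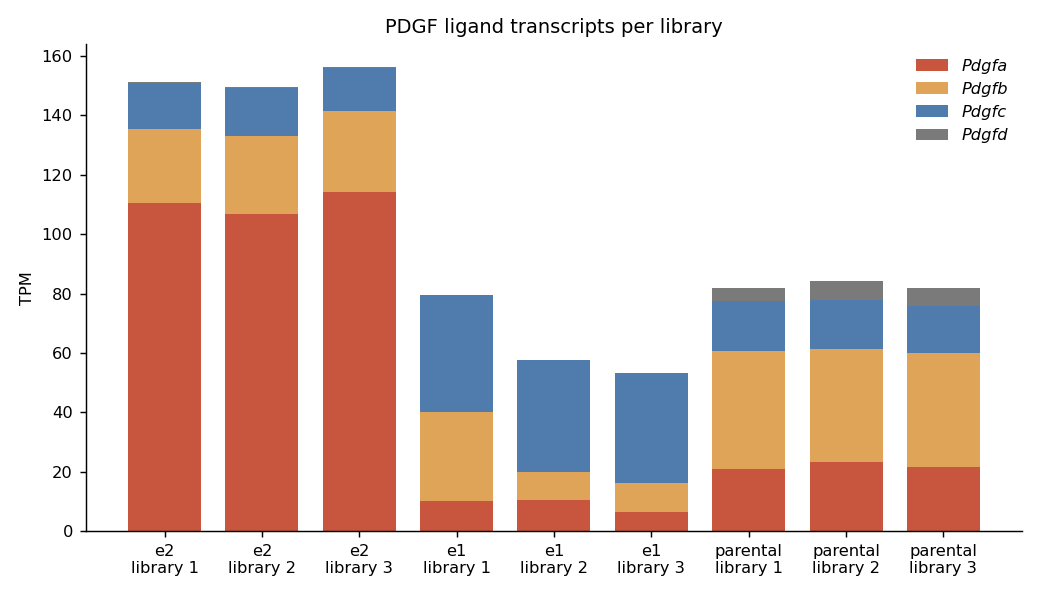
Stacked TPM of the 4 PDGF ligand genes in each of the 9 libraries (linear axis from 0). Pdgfa fills 71.3 to 73.1% of the e2 bars, Pdgfc is the largest segment in e1, and Pdgfb is the largest segment in parental libraries.

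Of the fibroblast surface genes, Pdpn separated the lines most sharply. Pdpn encodes podoplanin (chromosome 4, 143267409 to 143299564), a mucin-type membrane protein that binds ezrin-family linkers inside the cell. It stood at 71.0, 69.9 and 70.0 TPM in e2, at 0.0625, 0.0478 and 0.0453 TPM in e1, and at 0.0364, 0.137 and 0.0433 TPM in parental cells. The e2 libraries were far above all others, and the e1 libraries lay within the parental range. The log2 fold change in e2 was 6.06 ± 0.07 against parental (adjusted p = 1.23e-11) and 6.08 ± 0.07 against e1 (adjusted p = 3.38e-11). In e1 it was -0.03 ± 0.07 (95% interval -0.18 to 0.13, adjusted p = 0.753). Of the markers of lymphatic endothelium, where Pdpn is also found, Lyve1 and Prox1 were listed at 0 in all 9 libraries. Flt4, its growth factor receptor, stood at 0.676 ± 0.0821 TPM in e2, at a mean of 0.0106 TPM in e1 and at 11.5 ± 1.66 TPM in parental cells. It was thus higher in e2 than in e1 (0.73 ± 0.10, adjusted p = 0.00012), as Pdpn was, and lower in both lines than in parental cells. The part of such cells in the Pdpn result was not tested.

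Cd34, a sialomucin of progenitor cells, endothelium and some tissue fibroblasts (chromosome 1, 194938821 to 194961292), rose in both lines and far more in e2. It stood at 206, 199.98 and 199 TPM in e2, at 13.4, 10.7 and 9.68 TPM in e1, and at 0.518, 0.636 and 0.643 TPM in parental cells. The groups did not overlap, and in e2 it was the member with the highest level. The log2 fold change was 6.99 ± 0.10 in e2 (adjusted p = 3.55e-11) and 2.93 ± 0.10 in e1 (adjusted p = 6.80e-09), and e2 exceeded e1 by 4.06 ± 0.10 (adjusted p = 2.34e-09). Of 10 endothelial markers, none had a mean of 1 TPM or more in e2 or e1. Their sum was 1.12 to 1.46 TPM in e2, 0.184 to 0.499 TPM in e1 and 10.9 to 14.3 TPM in parental libraries, most of the last from Flt4. Pecam1 and Cdh5, too low for testing, had group means in the order of Cd34. Pecam1 was at 0.183 TPM in e2, 0.0576 TPM in e1 and 0.0192 TPM in parental cells. Cdh5 was at 0.393, 0.247 and 0.0336 TPM in the same order, with overlapping e2 and e1 libraries. Kdr was instead highest in parental cells (0.0338, 0.00950 and 0.569 TPM). Tie1, Tek and Vwf had group means of 0.0241 TPM or less, and Emcn was listed at 0 throughout. The part of endothelial transcripts in the Cd34 result was not tested. Of the 8 leukocyte markers, 2 were tested. Cd68, a lysosomal protein of macrophages, moved in the order of Cd34, at 5.43 ± 0.352 TPM in e2, 3.41 ± 0.568 TPM in e1 and 1.72 ± 0.248 TPM in parental cells (1.24 ± 0.11 and 0.69 ± 0.11 against parental, 0.55 ± 0.11 in e2 against e1). Lyz2, a lysozyme of myeloid cells, stood at 1.34, 1.51 and 0.914 TPM in e2 and was listed at 0 in every e1 and parental library. Cd14 was higher in e2 than in e1 by 2.51 ± 0.18 and at 0.01 ± 0.18 in e2 against parental. Ptprc, the common leukocyte antigen, had group means of 0.0130 TPM in e2, 0.00345 TPM in e1 and 0.0755 TPM in parental cells. Csf1r was likewise highest in parental cells (0.113, 0.102 and 0.825 TPM in the same order), as was Itgam (0.0488, 0.0139 and 0.0624 TPM). Laptm5 had 0.106, 0 and 0.0538 TPM, and Adgre1 had 0.00797, 0 and 0 TPM. The part of leukocyte transcripts in the Cd34 result was not tested. The antisense gene Gm16897, which overlaps Cd34, reached at most 0.731 TPM in any library. The sources used here do not say whether counting used the strand.

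Thy1, a small glycoprotein anchored to the membrane by a lipid (chromosome 9, 44043384 to 44048579), followed the same order at lower levels. It stood at 16.1, 17.3 and 17.97 TPM in e2 and at 5.80, 2.69 and 2.31 TPM in e1, with 0.0379, 0.0366 and 0 TPM in parental cells. The groups did not overlap, and e1 library 1 was the highest of its group. The log2 fold change was 4.14 ± 0.22 in e2 (adjusted p = 1.47e-07) and 2.09 ± 0.22 in e1 (adjusted p = 2.17e-05; 1.77 without e1 library 1), and e2 exceeded e1 by 2.05 ± 0.22 (adjusted p = 2.80e-05). The T cell genes Cd3e, Cd3g and Cd2 were listed at 0 in all 9 libraries. Cd247 had group means in the order of Thy1, but with overlapping libraries. It stood at 0, 0.450 and 0.317 TPM in e2 and at a mean of 0.0115 TPM in e1. In parental cells it was listed at 0. Cd3d had group means of 0.263 TPM in e2, 0.301 TPM in e1 and 0.205 TPM in parental cells, with overlapping libraries. The part of T cell transcripts in the Thy1 result was not tested. The kinase gene Lck, the 1 tested T cell marker, fell by 0.71 in e2 and 0.96 in e1. The sum of the 6 T cell markers was 0.681 to 1.44 TPM in e2, 0.366 to 0.836 TPM in e1 and 1.496 to 2.16 TPM in parental libraries.

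Mxra8, an adhesion protein with immunoglobulin domains that also serves as an entry receptor for arthritis-causing alphaviruses (chromosome 4, 155839680 to 155844102), was the member with the highest level in e1. It stood at 60.2, 56.4 and 61.6 TPM in e2, at 76.4, 90.7 and 94.2 TPM in e1, and at 0.0565, 0.0545 and 0.101 TPM in parental cells. Unlike Pdgfra, Thy1, Cd34 and Pdpn, it was lower in e2 than in e1, by 0.54 ± 0.08 on the log2 scale (adjusted p = 0.000243), and those libraries did not overlap. Against parental the log2 fold change was 5.82 ± 0.08 in e2 (adjusted p = 3.23e-11) and 6.36 ± 0.08 in e1 (adjusted p = 1.91e-11). Fap, a serine protease of activated fibroblasts (chromosome 2, 62500936 to 62575509), remained very low. It stood at 0.414, 0.376 and 0.257 TPM in e2, was listed at 0 in all e1 libraries, and stood at 0.0233, 0 and 0 TPM in parental cells. It did not reach the minimum for testing. With no minimum it passed in e2 against parental, with a difference of 0.42 ± 0.04 on the log2(TPM + 1) scale (adjusted p = 2.78e-05).

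**Figure D3:**
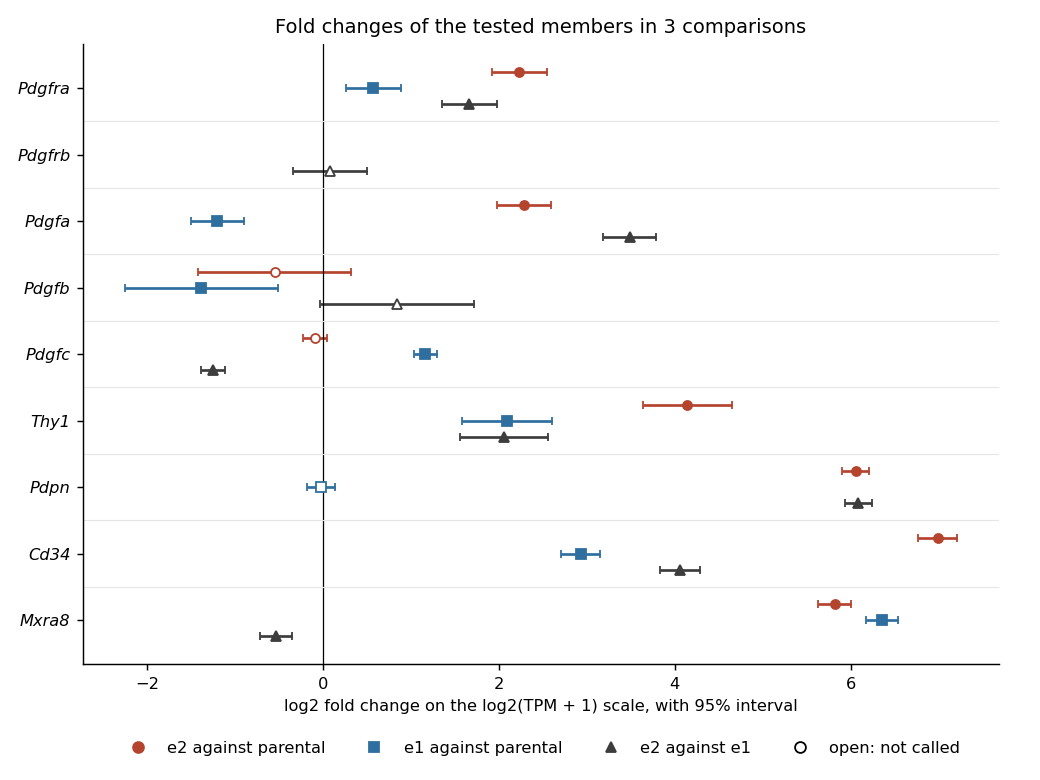
Differences of log2(TPM + 1) values with 95% intervals (limma) of the 9 tested members in e2 against parental, e1 against parental and e2 against e1. Filled symbols were called. Pdgfrb is not drawn against parental cells, where it was listed at 0. Pdgfa lies on opposite sides of 0 in the 2 lines, and the wide intervals of Pdgfb go with e1 library 1.

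With TPM comparable between genes, the order of the members differed by group. In parental cells the 3 ligand genes led, Pdgfb above Pdgfa above Pdgfc, and every other member was under 1 TPM. In e2 the order was Cd34, Pdgfa, Pdpn, Mxra8, Pdgfb, Pdgfrb, Thy1, Pdgfc, Pdgfra and Fap, and no neighbours in this order overlapped over their 3 libraries. In e1 the order was Mxra8, Pdgfc, Pdgfrb, Pdgfb, Cd34, Pdgfa, Thy1, Pdgfra, Pdpn and Fap. There the neighbours Pdgfrb and Pdgfb, Pdgfb and Cd34, and Cd34 and Pdgfa overlapped over their libraries and could not be ranked.

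Promoter sequences are shown for 4 members with contrasting patterns: Pdpn, at 1 TPM or more only in e2, Cd34 and Mxra8, high in both lines, and Pdgfa, which rose in e2 and fell in e1. They are from RefSeq, build GRCm38.p6, and run from 250 bases before to 50 bases after an annotated transcript start, 5′ to 3′ on the gene's strand. The table held 7 promoters for 6 of the 10 members. Capitals mark matches to the GC box (GGGCGG, bound by Sp1-type factors) and the E-box (CANNTG, bound by helix-loop-helix factors) on either strand. AP-1 sites (TGANTCA) and TATA boxes (TATAAA) were searched too. Of Pdgfa's 2 promoters in the table, the one farther upstream is shown. It lies inside the gene's outer coordinates given above, at the start of another transcript.
Pdpn promoter, chr4:143299515-143299814, strand -: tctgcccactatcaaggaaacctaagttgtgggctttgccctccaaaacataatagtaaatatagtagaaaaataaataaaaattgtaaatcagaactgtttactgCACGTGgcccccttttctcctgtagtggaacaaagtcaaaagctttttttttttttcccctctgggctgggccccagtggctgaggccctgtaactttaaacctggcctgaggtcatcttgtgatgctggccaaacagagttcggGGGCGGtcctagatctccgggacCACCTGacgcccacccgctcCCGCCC
Cd34 promoter, chr1:194938571-194938870, strand +: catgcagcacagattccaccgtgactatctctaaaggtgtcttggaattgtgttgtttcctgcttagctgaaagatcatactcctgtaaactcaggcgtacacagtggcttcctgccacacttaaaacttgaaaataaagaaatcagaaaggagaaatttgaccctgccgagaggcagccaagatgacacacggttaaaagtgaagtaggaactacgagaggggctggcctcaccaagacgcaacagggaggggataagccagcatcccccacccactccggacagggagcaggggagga
Mxra8 promoter, chr4:155839430-155839729, strand +: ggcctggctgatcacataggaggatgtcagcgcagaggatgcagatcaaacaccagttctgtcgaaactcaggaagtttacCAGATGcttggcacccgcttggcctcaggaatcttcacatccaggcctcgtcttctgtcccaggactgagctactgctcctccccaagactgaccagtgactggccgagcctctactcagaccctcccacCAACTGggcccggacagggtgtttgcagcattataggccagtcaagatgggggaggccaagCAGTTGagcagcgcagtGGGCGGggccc
Pdgfa promoter, chr5:138994895-138995194, strand -: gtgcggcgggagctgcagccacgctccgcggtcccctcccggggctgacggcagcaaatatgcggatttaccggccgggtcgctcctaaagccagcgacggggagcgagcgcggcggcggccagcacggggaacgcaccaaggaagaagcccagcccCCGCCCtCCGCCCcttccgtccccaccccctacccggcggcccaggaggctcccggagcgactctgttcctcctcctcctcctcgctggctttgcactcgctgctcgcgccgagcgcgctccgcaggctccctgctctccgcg
The Pdpn window held 2 GC boxes and 2 E-boxes, 1 of them the form CACCTG that Zeb and Snail repressors bind, which lies within the E-box pattern. The Mxra8 window held 1 GC box and 3 E-boxes, and the Cd34 window neither. The Pdgfa window held 2 GC boxes and 0 E-boxes, with 37 CpG pairs and 73.3% G and C. CpG pairs numbered 7 in Pdpn, 7 in Cd34 and 8 in Mxra8. Over all 32851 promoters of the table, 35.7% held a GC box, 72.3% an E-box, 20.2% CACCTG, 7.81% the AP-1 letters, which occur in 0 of these 4 windows, and 13.6% the TATA letters, likewise in 0 of them, with a median of 7 CpG pairs and 52.7% G and C. A match is a string of letters and no evidence of binding.

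The other genes of PDGF handling moved in both directions. Of 8 genes for ligand release and coreceptors, 7 were tested, and in each line 2 were higher and 5 lower against parental, where the median log2 fold change was -1.38 in e2 and -0.88 in e1 (0.07 and 0.02 over all tested genes). The coreceptor gene Nrp1, a partner of several growth factor receptors, rose to 53.4 ± 0.903 TPM in e2 and 31.1 ± 5.47 TPM in e1, against 8.68 ± 0.222 TPM in parental cells (2.49 ± 0.11 and 1.71 ± 0.11). Lrp1, an endocytic receptor that associates with the beta receptor, rose to 13.3 ± 1.11 TPM in e2 and 12.4 ± 4.50 TPM in e1, against 0.463 ± 0.241 TPM in parental cells. The e1 libraries had 17.5, 9.04 and 10.6 TPM of Lrp1, and e2 against e1 was at 0.14 ± 0.21 (adjusted p = 0.562), or 0.40 without e1 library 1 (adjusted p = 0.0206). The proteases that free the C and D chains were lower. Plat, tissue plasminogen activator, which cleaves PDGF-C, fell to 15.4 ± 0.326 TPM in e2 and 41.9 ± 2.54 TPM in e1, against 229 ± 27.2 TPM in parental cells (-3.80 ± 0.08 and -2.41 ± 0.08). Plau, urokinase, which cleaves PDGF-D, fell to 10.9 ± 0.348 TPM in e2 and 64.0 ± 12.8 TPM in e1, against 122 ± 23.6 TPM in parental cells. Furin, which processes the A and B chains, fell less, by 0.31 ± 0.06 in e2 and 0.59 ± 0.06 in e1. All of these calls had an adjusted p of 0.000737 or less (limma).

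Of 17 genes of receptor signalling, 9 were higher and 5 lower in e2 and 8 higher and 5 lower in e1, with medians of 0.14 and 0.09. The e2 count was 7 higher and 6 lower in the rlog values and under median-ratio scaling, where the adaptor genes Nck1 and Nck2 were no longer called. As fitted, Nck1 was at 0.14 ± 0.06 in e2 (adjusted p = 0.049) and Nck2 at 0.16 ± 0.06 (adjusted p = 0.0443), and these calls also ended in several fits that left out 1 library. Nck2 fell in e1 by 0.55 ± 0.06 and was higher in e2 than in e1 by 0.71 ± 0.06. Pik3r1, a regulatory subunit of PI3 kinase, rose by 1.99 ± 0.06 in e2 (17.9 ± 0.980 TPM in e2 against 3.75 ± 0.111 TPM in parental cells). In e1 it rose by 0.63 ± 0.06. Stat3, a transcription factor activated by receptor kinases, rose by 1.08 ± 0.05 in e2 and 0.52 ± 0.05 in e1. The catalytic subunit gene Pik3cb fell by 1.16 ± 0.09 in e2 and 0.59 ± 0.09 in e1, and the adaptor gene Crkl fell by 0.82 ± 0.06 in e2. In e1 the adaptor genes Shc1 and Gab1 rose by 1.03 ± 0.09 and 0.80 ± 0.10. In e2 Shc1 rose by 0.46 ± 0.09, and Gab1 was at -0.11 ± 0.10 and not called. Among 10 genes that restrain the receptors, 4 were higher and 3 lower in e2 and 5 higher and 3 lower in e1 (medians 0.04 and 0.25). Rasa1, a GTPase activator that binds the beta receptor, rose by 1.98 ± 0.08 in e2 and 0.34 ± 0.08 in e1. Spry4, a feedback inhibitor, rose by 1.46 ± 0.15 in e2, while the ubiquitin ligase genes Cbl and Cblb fell there by 0.82 ± 0.18 and 0.81 ± 0.10. Cblb fell in e1 as well, at -0.37 ± 0.10. Dusp6, a phosphatase of the ERK kinases, fell by 0.61 ± 0.11 in e1. The tyrosine phosphatase genes Ptpn1 and Ptpn2 rose in e1 by 0.38 ± 0.05 and 0.41 ± 0.10. In e2 Ptpn2 was at 0.29 ± 0.10 (adjusted p = 0.0279), a call that ended under median-ratio scaling (0.19, adjusted p = 0.129) and without any 1 of the e2 libraries.

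Of 12 known partners of the surface members, 9 were tested, of which 5 were higher and 2 lower in e2 and 7 higher and 1 lower in e1 (medians 0.46 and 0.85). Podoplanin's partner Cd44, the hyaluronan receptor, rose to 334 ± 7.01 TPM in e2 and 240.0 ± 46.4 TPM in e1, against 119 ± 12.4 TPM in parental cells (1.48 ± 0.12 and 0.99 ± 0.12). Its linker genes split: Ezr, ezrin, fell by 2.24 ± 0.09 in e2 and 1.33 ± 0.09 in e1, whereas Msn, moesin, rose by 0.46 ± 0.11 and 1.14 ± 0.11. Podxl2, a relative of Cd34, rose to 3.03 ± 0.132 TPM in e2 and 1.70 ± 0.326 TPM in e1, against 0.138 ± 0.0949 TPM in parental cells. The integrin gene Itgb3, whose product binds Thy1, rose by 2.23 ± 0.09 in e1. In e2 it was at -0.23 ± 0.09, a call that ended without any 1 of e2 libraries 1, 2 or 3 (adjusted p = 0.0646, 0.0636 and 0.131), and also without parental library 1 or 2 or e1 library 2 and with the library number as a block (adjusted p = 0.0598). Dpp4, the dimer partner of Fap, had group means of 0.0129 TPM in e2 and 0.0380 TPM in parental cells and was listed at 0 in e1. Clec1b, the podoplanin receptor of platelets, was listed at 0 in all libraries.

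**Figure D4:**
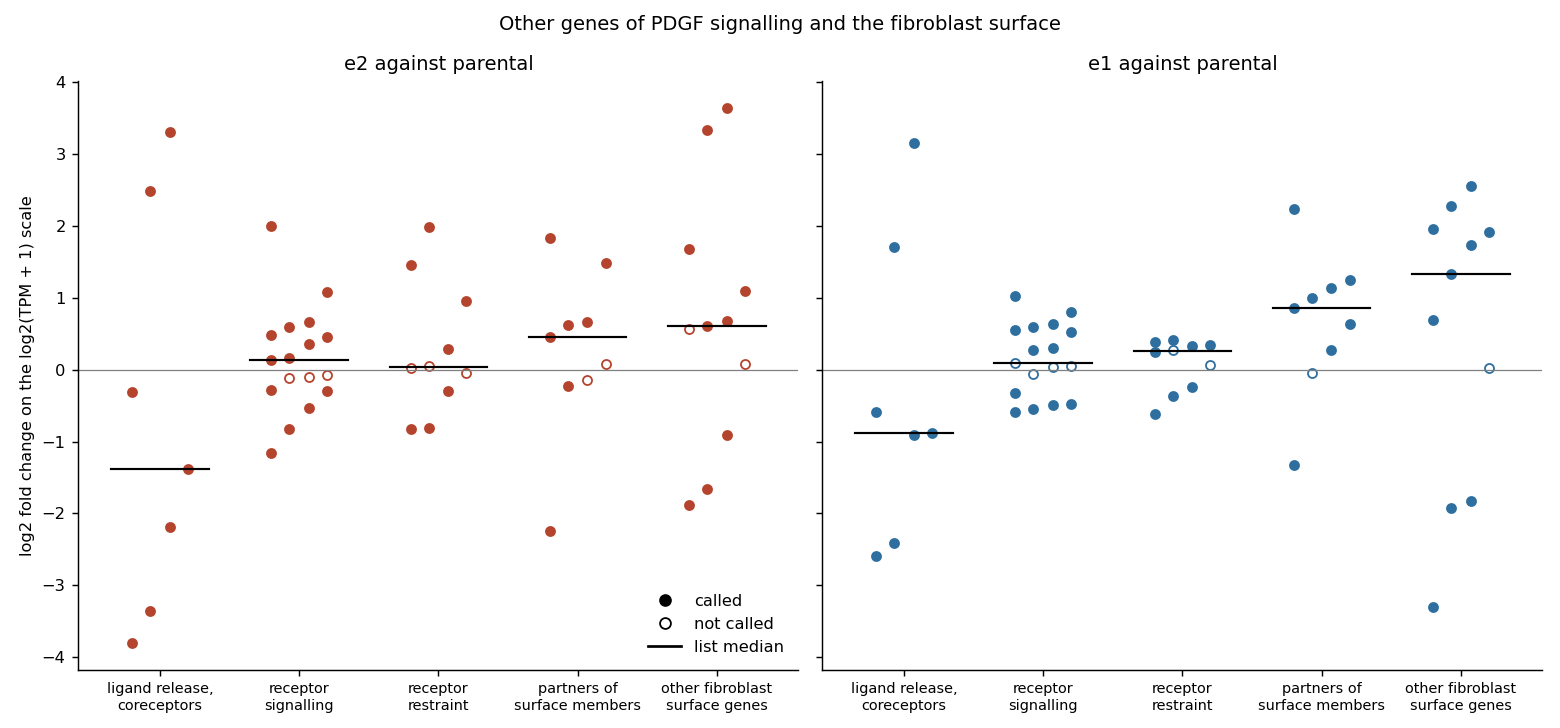
Differences of log2(TPM + 1) values of the tested genes in 5 lists (points; filled if called) with the list median (line), for e2 against parental and e1 against parental. Receptor signalling and restraint genes scatter on either side of 0, with medians from 0.04 to 0.25.

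Other surface genes used for fibroblasts also split. Of 12 listed, 11 were tested, of which 6 were higher and 3 lower in e2 and 7 higher and 3 lower in e1 (medians 0.60 and 1.33). Cd248, Cdh11, Eng, Anpep and Itga11 were under 1 TPM in every parental library and entered the test by their escape libraries alone. Cd248, endosialin, rose to 11.96 ± 0.338 TPM in e2 and 5.10 ± 0.629 TPM in e1, against 0.0400 ± 0.0494 TPM in parental cells. Vcam1, an adhesion molecule, rose to 172 ± 2.89 TPM in e2 and 82.9 ± 13.5 TPM in e1, against 16.2 ± 1.36 TPM in parental cells. Cdh11, a cadherin of mesenchyme, rose in e2 by 1.67 ± 0.08 and was at 0.02 ± 0.08 in e1 (adjusted p = 0.811), and the difference between the lines was 1.65 ± 0.08 (adjusted p = 9.73e-08). Itga11, a collagen-binding integrin, was instead lower in e2 than in e1, by 1.24 ± 0.08, as was Mcam, an adhesion molecule, by 1.88 ± 0.21, with e1 libraries at 30.4, 16.3 and 18.2 TPM. The lymphocyte antigen family genes Ly6a and Ly6c1, which mark subsets of mouse fibroblasts, fell in both lines. Ly6a stood at 677 ± 15.6 TPM in e2 and 129.5 ± 20.0 TPM in e1, against 1275 ± 38.4 TPM in parental cells, and Ly6c1 at 48.8 ± 1.62, 46.8 ± 1.04 and 182 ± 18.8 TPM in the same order. Nt5e, the ectonucleotidase CD73, fell by 1.66 ± 0.18 in e2 and 1.82 ± 0.18 in e1. Ly6 genes have close relatives, so their single values are uncertain.

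In the escape lines most fibroblast matrix genes rose and the epithelial genes fell, and their part in these results was not tested. Of 8 fibroblast matrix markers, 7 were tested, with 6 higher and 1 lower in e2 and 6 higher and 0 lower in e1. Over all tested genes, 40.8% were higher and 32.7% lower in e2, and 35.7% and 34.9% in e1. The 6 higher genes were under 1 TPM in every parental library and entered the test by their escape libraries alone. This leaves little room for a lower value, so these counts are a description and not support for a direction. The lines differed among these genes. Dcn, which encodes decorin, a collagen-binding proteoglycan, had 36.3, 35.5 and 34.6 TPM in e2 libraries and 0.127, 0.227 and 0.0897 TPM in e1 libraries, and was listed at 0 in parental cells. It was higher in e2 than in e1 by 4.99 ± 0.07 (adjusted p = 2.08e-10), and its call in e1 against parental (adjusted p = 0.0366) ended with the library number as a block (adjusted p = 0.0616), with the compared groups only (0.0654) and in several fits that left out 1 library. Postn, the matrix protein periostin, was also higher in e2, at 24.1 ± 1.32 TPM against 1.53 ± 0.841 TPM in e1 (3.36 ± 0.18). Col1a1 and Col1a2, the chains of type I collagen, were lower in e2 than in e1, by 1.52 ± 0.14 and 0.49 ± 0.06. Fbln1, a matrix glycoprotein, fell by 0.91 ± 0.12 in e2 and was at -0.05 ± 0.12 in e1. The sum ran from 238 to 249.97 TPM in e2, from 311 to 324 TPM in e1 and from 16.6 to 19.8 TPM in parental libraries, where most of it was Fbln1. Lum was listed at 0 in all 9 libraries. All 8 epithelial markers were lower in both lines, with sums of 1678 to 1739 TPM in e2, 1164 to 1208 TPM in e1 and 8513 to 9704 TPM in parental libraries. Several fell to low levels. Epcam, an epithelial adhesion protein, stood at 0.185 ± 0.0737 TPM in e2 and 0.296 ± 0.0427 TPM in e1, against 133 ± 32.8 TPM in parental cells. Cldn4, a tight junction protein, stood at 0.0971 ± 0.0463 TPM in e2 and at a mean of 0.0106 TPM in e1, against 194 ± 58.5 TPM in parental cells. Krt7, a keratin of ducts, stood at 28.1 ± 1.79 TPM in e2 and 1.045 ± 0.182 TPM in e1, against 2264 ± 163 TPM in parental cells. Krt8 and Krt18, keratins of simple epithelium, kept more, at 576 ± 5.01 and 1012 ± 20.9 TPM in e2 and at 747 ± 52.2 and 377 ± 56.2 TPM in e1, against 1873 ± 152 and 2266 ± 86.7 TPM in parental cells. In both escape lines, Krt8 and Krt18 transcripts were thus present beside those of Pdgfrb, Cd34, Thy1 and Mxra8. The 8 leukocyte markers summed to 60.4 to 65.1 TPM in e2, 8.92 to 15.3 TPM in e1 and 55.2 to 62.0 TPM in parental libraries, mostly from Cd14 and Cd68.

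**Figure D5:**
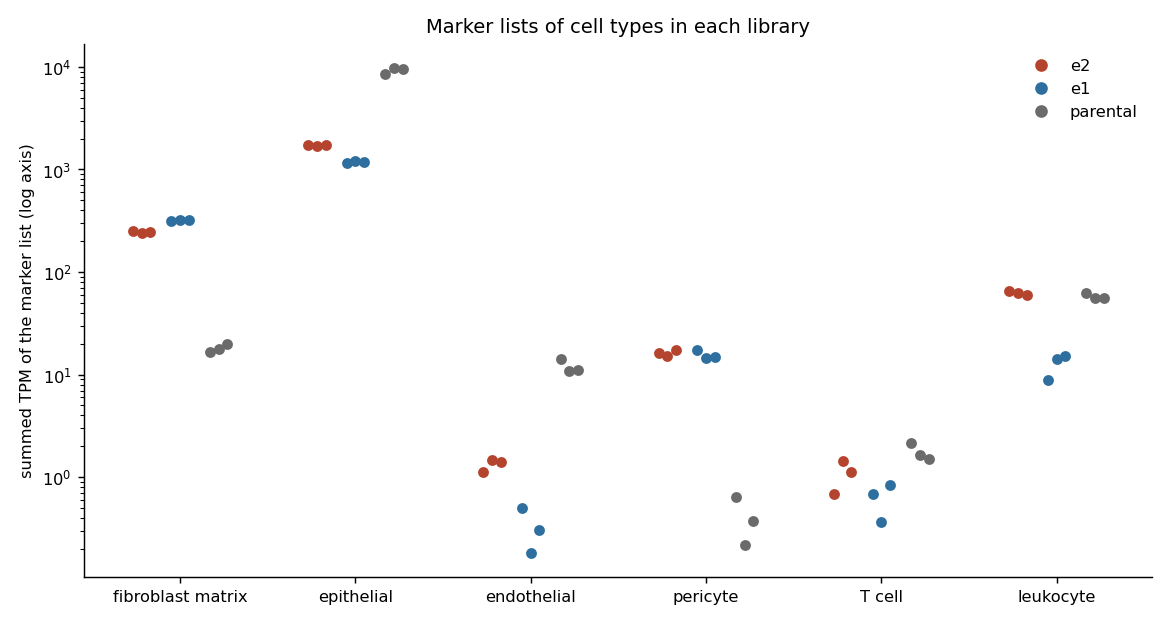
Summed TPM of each cell type marker list per library (log axis; each point is 1 library of e2, e1 or parental cells). Fibroblast matrix and pericyte sums are higher and epithelial sums lower in e2 and e1 than in parental libraries, and the pericyte sum of the escape lines is carried by Cspg4.

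Genes whose pattern lay closest to a member were found by the Euclidean distance between log2(TPM + 1) values over the 9 libraries, each gene centred on its own mean. The nearest were Hspb6 for Pdgfra (distance 0.25), Col6a1 for Pdgfrb (0.67), Arhgap6 for Pdgfa (0.52), Wnt7b for Pdgfb (0.60), Eef1akmt1 for Pdgfc (0.13), Oasl2 for Thy1 (0.38), Hhip for Pdpn (0.64), Gpnmb for Cd34 (1.18) and Col3a1 for Mxra8 (0.45). Hhip, which binds Hedgehog ligands, stood at 48.4 ± 0.798 TPM in e2, with means of 0.00387 TPM in e1 and 0.00643 TPM in parental cells. Col3a1, a fibrillar collagen, stood at 53.7 ± 0.893 TPM in e2 and at 51.5, 89.0 and 89.1 TPM in e1, where library 1 was the lowest, and was listed at 0 in parental cells. Arhgap6 shared with Pdgfa the order of e2, at 27.6 ± 0.513 TPM, over parental, at 5.26 ± 0.70 TPM, over e1, at 1.70 ± 0.368 TPM. With only 3 groups, many genes share an order, so likeness is a description of these libraries.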

How the data were processed

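RNA of mouse pancreatic tumor cells was sequenced in 9 libraries, 3 each of escape e2, escape e1 and parental cells, with groups and library numbers from the titles. The authors deposited gene TPM values (with the same sum in every library) and log2 values, the rlog transform. Per the submitters' processing notes, the tools were Salmon and DESeq2 and the build mm10. The sources used here give no versions, annotation or strand setting. TPM keeps no depth, so no counting interval is given. TPM was transformed as log2(TPM + 1), and the 12769 of 24493 genes that reached 1 TPM in 3 libraries or more were fitted with 3 group means in limma 3.58.1 (R 4.3.3; trend and robust empirical Bayes). Two-sided p-values were adjusted by Benjamini-Hochberg over all tested genes, with a threshold of 0.05.

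The members and all gene lists were chosen with earlier results of these data known. All members are named. From each other list the rule takes up to 2 called genes per direction and comparison with the largest change; Msn, Dpp4, Clec1b, Nck1 and other genes given as marker levels were added after their values were seen. The pattern rule takes the 2 nearest tested genes, of which the nearest is given. Same-numbered libraries did not deviate together (correlations -0.13 to 0.05), so the fit has no block. Coordinates are from RefSeq, GRCm38.p6, the assembly that mm10 names. Alternatives were the rlog values, a pseudocount of 0.1, a minimum of 5 TPM or none, leaving out the 10 highest genes, median-ratio scaling, a replicate block, a fit of the compared groups, plain empirical Bayes, and each library left out in turn.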

Additional observations from a re-analysis of the deposited data

Results flagged for a closer look

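The effects of the 2 escape lines differ for 7 of the 9 tested members, by the test of e2 against e1 itself (limma log2 fold changes, with the adjusted p-values given in the report). Over all tested genes, 70.3% were called in this comparison, so the count by itself is not particular to the members. Pdgfa rose in e2 and fell in e1, and the lines differed by 3.49. Pdpn rose in e2 and was not called in e1, a difference of 6.08. Cd34 rose in both lines and stood higher in e2 by 4.06, as did Thy1 by 2.05 and Pdgfra by 1.66. Pdgfc rose in e1 and was not called in e2, a difference of -1.25. Mxra8 rose in both lines and differed by -0.54. The lines share their parental libraries. The size of each of these differences comes from the e2 and e1 libraries alone, while the spread behind its p-value is pooled over all 9 libraries.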

How the results depend on the processing

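Each of 27 member fold changes was recomputed under 18 alternatives, and 22 kept their direction and their side of the threshold under all of them. The exceptions were Pdgfb and Pdgfc in e2 against parental, Pdpn in e1 against parental, and Pdgfb and Pdgfrb in e2 against e1. Members called lower in e2 against parental numbered 1 in place of 0 in the rlog values and under median-ratio scaling (Pdgfc), and with the compared groups only and without e1 library 1 (Pdgfb), so leaving out a library gave 0 to 1. Members called higher ran from 7 to 8 in e2 against parental. In e2 against e1, 5 to 6 were called higher and 2 to 3 lower. With no minimum, Fap was called higher in both of these comparisons (0.43 in e2 against e1, limma adjusted p = 3.04e-05). Pdgfrb in e2 against e1 turned to -0.0201 under median-ratio scaling, to -0.0169 in the rlog values and to -0.196 without e1 library 1 (leave-one-out range -0.20 to 0.21). Pdpn in e1 against parental, never called, ran from -0.0503 to 0.0166 over the libraries left out; the upper value was that without parental library 2. A pseudocount of 0.1 raised values of members near 0: in e2 against parental Pdgfra was 3.65 and Thy1 7.12, and in e1 against parental Pdgfra was 1.29 and Thy1 4.79. Pdgfrb against parental cells, where it was listed at 0, is left out, since the size of that value depends on the pseudocount. Genes called ranged from 7548 to 10152 in e1 against parental, 7795 to 10908 in e2 against parental and 7630 to 10038 in e2 against e1. The lowest counts were those at a minimum of 5 TPM, where 10461 genes were tested. The highest were those with no minimum, where 19340 were tested, against 12769 as fitted. With the library number as a block 8742, 9163 and 8740 genes were called in the same order and no member's call changed; the numbers do not pair the libraries. The lowest and highest counts of genes called thus go with the number of genes tested, and the cause of the other differences between alternatives was not tested. TPM without depth limits what can be said of values near 0, such as those of Fap.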
